A study of Mus musculus with 8 samples.

Results

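The RNAs of mouse germinal vesicle (GV) oocytes were set against those of mouse embryonic stem cells (ESC). Libraries were chosen by their labels alone, and 4 of the 8 libraries in the series were used here, 2 of GV oocytes (GV1 and GV2) and 2 of ESC (ESC1 and ESC2). The GV oocytes came from mice primed with 5 units of PMSG, a hormone that makes follicles grow, 48 h before a further injection that the labels do not name, and were collected in medium with 2 µM milrinone, a phosphodiesterase inhibitor that holds oocytes in prophase arrest. The ESC were grown in Knockout DMEM with 15% fetal bovine serum, leukaemia inhibitory factor (LIF), the MEK inhibitor PD0325901 and the GSK3 inhibitor CHIR99021, the mixture used to keep mouse stem cells in the naive state. Total RNA of all 4 was extracted with TRIzol and made into stranded paired-end libraries, and the labels do not say whether poly(A) RNA was selected. The remaining 4 libraries were 2 of ovulated eggs (labelled MII) and 2 of cells made from ESC by taking LIF and the inhibitors away (labelled EpiC). They entered the estimate of the spread between replicates, the choice of genes with enough counts and the scaling of counts. The labels give no strain, no cell line name and no number of oocytes in a pool. Nor do they tell if the replicates of a group are different animals or cultures, and every p-value measures only the spread between these libraries, which may be technical.

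A GV oocyte is a fully grown egg precursor that rests in prophase of the first meiotic division. It has stored the messenger RNAs and proteins that will carry meiosis and early embryonic life, and its own transcription has fallen silent or nearly so, so that its RNA is a store rather than a readout of ongoing synthesis. Naive ESC are the opposite kind of cell: small, dividing quickly with a brief gap before DNA replication, transcribing actively, and held by LIF and the 2 inhibitors in the state of the cells of the early blastocyst.

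The deposited estimated counts summed to 79465769 and 187501275 in GV1 and GV2 and to 50216249 and 166400271 in ESC1 and ESC2, so replicate 2 was the deeper library of both groups, by 2.36 and 3.31 times. Replicates correlated across 25044 genes with r = 0.98 in GV and 0.984 in ESC, while libraries of different groups reached 0.643 to 0.668 (genes are not independent replicates, and these values are a description). The gene model Gm42418 held 0.022% and 1.66% of counts in the GV libraries and 0.0306% and 14.7% in the ESC libraries, and was left out of scaling. Levels are given as TPM, each transcript's share of all transcripts after correction for length, always in the order replicate 1 and then replicate 2. All 10 oocyte markers used to check the label were higher in GV, with a summed level of 22200 and 23200 TPM in GV against 70.6 and 38.2 TPM in ESC. All 10 stem cell markers were lower, at 1260 and 1080 TPM against 7900 and 6360 TPM. Dppa5a alone made up 1110 and 890 TPM of that GV sum, and was at 4940 and 4220 TPM in ESC.

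Markers of other cell types were looked for in the same way. The 22 markers of cumulus and granulosa cells, which surround the oocyte, summed to 40.6 TPM in GV1 and 275 TPM in GV2, against 43.5 and 56 TPM in ESC. Of these markers 7 were called higher and 2 lower. Inha, a hormone subunit made by granulosa cells, was at 4.66 TPM in GV1 and 105 TPM in GV2, and the junction gene Gja1 at 2.55 and 50.5 TPM. The defining granulosa receptor Fshr stood at 0.934 and 4.18 TPM, and Foxl2, a defining transcription factor of these cells, at 0 and 0.244 TPM. The 15 fibroblast markers summed to 473 and 395 TPM in ESC, of which Fn1 (fibronectin) made up 461 and 383 TPM, while the fibroblast collagens Col1a1, Col1a2 and Col3a1 did not pass 0.319 TPM in either ESC library. Among 7 blood and macrophage markers Cd68 reached 18.4 and 36 TPM in ESC, and Ptprc stayed at 0.0135 and 0.0683 TPM. The 12 markers of differentiated germ layers summed to 31.3 and 26.5 TPM in ESC. What part such cells had in the values below was not tested.

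Oocytes and stem cells differed in many genes. Of 25045 genes with enough counts, 7100 were higher in GV and 7834 lower, and 10111 did not pass the test (edgeR's quasi-likelihood test over all 8 libraries with Benjamini-Hochberg adjustment at 0.05, the test behind every adjusted p-value of a gene below). The background against which any gene group must be read is therefore high: 28.3% of tested genes were called higher and 31.3% lower. The changes were also large. Of the calls, 5756 higher and 6756 lower ones went beyond 2 on the log2 scale, and 1202 and 613 went beyond 8. The median log2 difference of all genes was -0.51, and that of the 17503 protein-coding genes tested was -0.14. All levels are relative, so less RNA per cell and fewer cells cannot be told apart, and a gene called lower held a smaller share of the RNA. TPM are scaled to each library's total. The tested counts were also scaled by TMM factors, 1.014 and 1.104 in GV and 1.393 and 1.616 in ESC. A log2 difference can therefore lie above what the TPM show. Cdk1 had 0.12, with 328 and 308 TPM in GV against 413 and 311 TPM in ESC. With any 1 library left out, or with no count filter, fewer genes were called than were not. Without GV1 the lower calls numbered 4925, and 57.6% of all calls were then higher in GV instead of 47.5%. A fit on log2(TPM + 1) moved the median of all genes by 0.35. Larger shifts came from the choice of libraries. With GV and ESC libraries alone the median was -0.03 over 23166 genes, and 50.5% of calls were higher in GV. Without ESC2 the median was 0.0. The lean of the median towards lower genes thus depends on the setting.

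**Figure D1:**
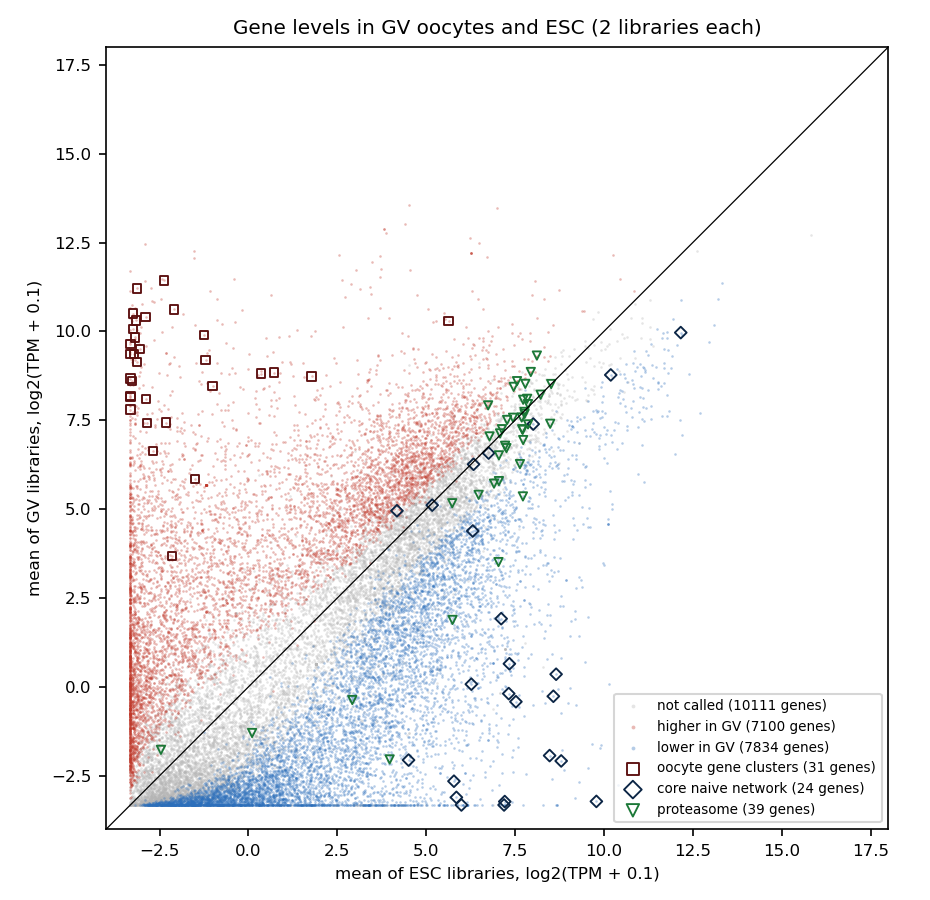
Mean level of every gene in the ESC libraries (x axis) and the GV libraries (y axis), both in TPM on log axes, with members of 3 gene lists marked. All 31 tested genes of the oocyte clusters sit far above the diagonal, 20 of 24 core naive genes were called lower, and 28 of 39 proteasome genes were not called and lie along the diagonal.

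The gene groups spread from one end of this range to the other. At one end stood the oocyte gene clusters, with a median log2 difference of 14.71, and the list of egg coat and fertilisation genes, with 14.67. Some of these genes had ESC counts near 0, such as Fbxw24 (1 and 1) and Oog3 (0 and 2). The size of such a difference, and of these medians, therefore rests on few counts. At the other end was the core naive network, with -7.40. Between them, proteasome genes (0.20), replication genes (-0.15) and translation initiation factors (-0.55) lay near the median of all genes.

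**Figure D2:**
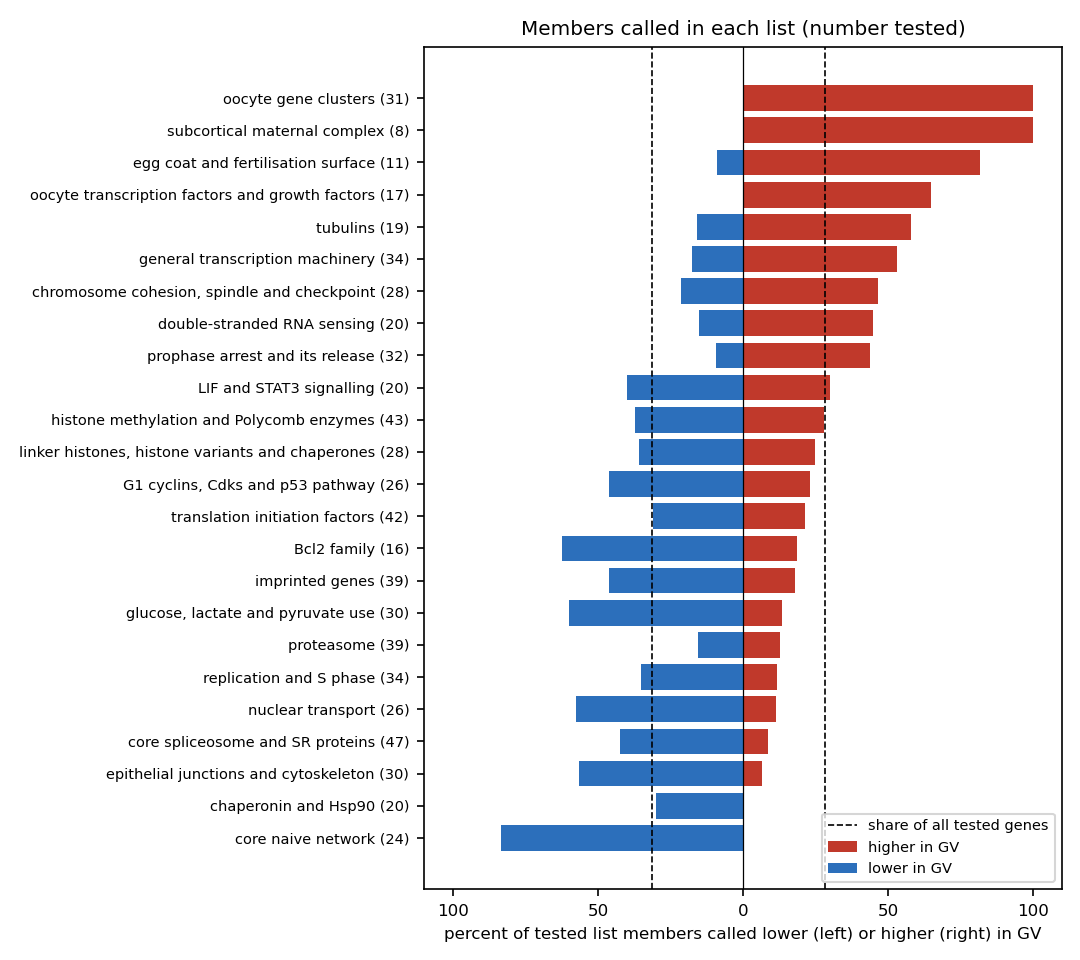
Percent of the tested members of each gene list called higher (red) or lower (blue) in GV oocytes than in ESC, on the x axis, with the lists on the y axis. Dashed lines mark the 28.3% and 31.3% called over all 25045 genes, and some lists stayed close to both, such as the translation initiation factors (9 higher and 13 lower of 42) and the histone methylation and Polycomb enzymes (12 and 16 of 43).

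Of 11 genes for the egg coat and for proteins of fertilisation 9 were higher in GV, 1 was lower and 1 was not called. Together they summed to 14900 and 13200 TPM in GV against 721 and 576 TPM in ESC. The egg coat is built from zona pellucida glycoproteins. Zp1 measured 1030 and 1200 TPM in GV against 0 and 0.0483 TPM in ESC, a log2 difference of 15.66 ± 0.86 (SE). Zp2 measured 3460 and 2260 TPM in GV against 0.143 and 0.0285 TPM in ESC, a difference of 16.96 ± 1.04. Zp3 was the only one of the 3 with a visible level in stem cells, 9.73 and 6.35 TPM, but its 3000 and 3770 TPM in GV still gave a difference of 9.06 ± 0.76 (adjusted p = 2.34e-05). No value of one group came near the other.

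On the egg surface, Izumo1r (Juno), the receptor that sperm bind before fusion, was at 356 and 497 TPM in GV and 0 and 0.0384 TPM in ESC. Its difference was 14.67 ± 0.74 on the log2 scale. Astl (ovastacin), the protease that hardens the coat after fertilisation, was at 616 and 622 TPM in GV against 0 and 0.267 TPM. The ESC values of both were near 0. The tetraspanins of the egg membrane did not follow. Cd9 measured 177 and 167 TPM in GV and 487 and 281 TPM in ESC and was not called (-0.88 ± 0.39, adjusted p = 0.0783), although it was called lower on log2(TPM + 0.1) and when protein-coding genes were fitted alone. Cd81 fell from 224 and 288 TPM in ESC to 2.43 and 11.7 TPM in GV, by 5.12 ± 0.77 on the log2 scale.

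Oosp1, a secreted oocyte protein encoded at chr19:11667460-11691150 on the minus strand (GRCm38), had 3750 and 2950 TPM in GV and no count in either ESC library. Set against a floor of 3 counts per library, it was at least 51000-fold higher in GV (adjusted p = 6.85e-06). Its neighbours in the family, Oosp2 and Oosp3, were at least 10100-fold and 15500-fold higher by the same floor.

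The subcortical maternal complex, a protein lattice under the egg membrane that embryos need to pass their first divisions, rose as a whole. All 8 members were called higher, with a median log2 difference of 8.82. Padi6 measured 4060 and 4520 TPM in GV and 0.18 and 0.319 TPM in ESC (14.32 ± 0.85). Tle6, at 2640 and 4240 TPM, and Zbed3, at 3830 and 4100 TPM, were as abundant, but ESC held 13.6 and 12.7 TPM of Tle6 and 12.1 and 9.91 TPM of Zbed3. The smallest difference was that of Khdc3, with 139 and 142 TPM in GV against 18.8 and 11.9 TPM in ESC (3.14 ± 0.74, adjusted p = 0.0059). So the complex ranged from members that stem cells lack to members that they share at a low level.

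Oocyte transcription factors and growth factors gave 11 higher, 0 lower and 6 uncalled genes of 17, and 1 was called lower in the limma fits. Nobox, a homeobox factor that oocytes need to grow, was at 530 and 580 TPM in GV against 0.0966 and 0.138 TPM in ESC (12.38 ± 0.61). Lhx8 was at 206 and 236 TPM against 0.524 and 0.454 TPM, and Figla, which drives the zona genes, at 55.8 and 63.3 TPM against 0.0464 and 0.0394 TPM. Foxo3, which holds primordial oocytes at rest, was higher too, at 65.8 and 51 TPM against 26 and 31.9 TPM (1.33 ± 0.4, adjusted p = 0.0177), but was not called without ESC1 or without ESC2. Not called were Sohlh1, which stood at 0.155 and 0.265 TPM in GV, and Sohlh2, at 4.05 and 4.22 TPM in GV against 3.22 and 6.57 TPM in ESC.

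Gdf9, the growth factor by which the oocyte steers its granulosa cells, was among the most abundant messages, with 5020 and 4880 TPM in GV and 0.102 and 0.39 TPM in ESC (14.76 ± 1.21). Its partner Bmp15 had 2110 and 1020 TPM in GV against 1.02 and 0.528 TPM. Bmp6 was lower in level, at 84.7 and 92 TPM against 0.558 and 0.513 TPM (7.69 ± 0.4). Kit, the receptor through which granulosa cells signal back to the oocyte, was shared by both cell types, at 154 and 77.2 TPM in GV and 122 and 74.5 TPM in ESC, and was not called (0.53 ± 0.53, adjusted p = 0.404).

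The clustered gene families of the mouse oocyte all pointed one way. Of 32 genes listed, 31 had enough counts to be tested and all 31 were higher in GV, with no lower call under any of the 14 alternatives. The Fbxw family of F-box proteins summed to 14800 and 9830 TPM in GV and to 0.422 and 0.738 TPM in ESC. The Nlrp4, Nlrp9 and Nlrp14 genes summed to 7300 and 2470 TPM against 4.04 and 2.81 TPM. GV1 held the larger sum of both families. Fbxw24 alone was at 2800 and 1940 TPM in GV against 0.021 and 0.00598 TPM in ESC (17.98 ± 0.77), and Oog3 at 1360 and 784 TPM against 0 and 0.00933 TPM (17.27 ± 0.84). Tcl1 was the one member with more than 5 TPM in ESC, at 78.1 and 20.9 TPM against 1110 and 1420 TPM in GV (5.11 ± 0.72). Several members of these families are close copies of one another. So are some Obox genes in the transcription factor list above and some Oas1 and tubulin genes below. How reads were split between such copies is uncertain, and their likeness was not measured here. A family sum does not depend on the split among the members summed. Relatives outside a sum are not covered, such as Nlrp4f, at 827 and 286 TPM in GV against 35.7 and 15.9 TPM in ESC. Sharing of reads with such relatives was not tested.

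Promoters of 4 oocyte genes and of 2 genes lower in GV are shown because they differ in how many CG dinucleotides they hold. Each line gives 250 bases before and 50 bases after the annotated start, 5′ to 3′ in the direction of transcription, from RefSeq on GRCm38.p6, with every CG dinucleotide in capitals. Zp3 (chr5:135979855-135980154, plus strand) holds 7 CG, Oosp1 (chr19:11691002-11691301, minus) 5, Oog3 (chr4:144162602-144162901, minus) 1 and Fbxw24 (chr9:109626010-109626309, minus) 2. Of the genes lower in GV, the stem cell factor Nanog (chr6:122707239-122707538, plus) holds 4, whereas Srsf3 (chr17:29032410-29032709, plus), a splicing factor found in both cell types, holds 42.
Zp3: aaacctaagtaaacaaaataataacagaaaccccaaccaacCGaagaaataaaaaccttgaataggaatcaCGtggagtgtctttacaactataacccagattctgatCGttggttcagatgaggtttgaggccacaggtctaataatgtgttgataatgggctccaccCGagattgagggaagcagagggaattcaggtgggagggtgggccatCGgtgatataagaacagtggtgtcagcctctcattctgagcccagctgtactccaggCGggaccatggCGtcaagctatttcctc
Oosp1: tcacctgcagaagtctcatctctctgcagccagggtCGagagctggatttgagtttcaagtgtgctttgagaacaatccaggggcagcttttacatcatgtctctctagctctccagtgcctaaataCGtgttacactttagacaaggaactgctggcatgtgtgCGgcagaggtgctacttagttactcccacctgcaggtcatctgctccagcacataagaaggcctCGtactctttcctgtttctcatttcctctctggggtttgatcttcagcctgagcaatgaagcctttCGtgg
Oog3: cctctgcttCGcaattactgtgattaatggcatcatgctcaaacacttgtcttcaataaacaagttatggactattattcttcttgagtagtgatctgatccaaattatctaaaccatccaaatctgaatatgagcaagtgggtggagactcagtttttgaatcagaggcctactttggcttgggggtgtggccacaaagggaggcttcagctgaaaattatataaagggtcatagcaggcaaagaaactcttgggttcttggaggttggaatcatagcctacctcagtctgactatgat
Fbxw24: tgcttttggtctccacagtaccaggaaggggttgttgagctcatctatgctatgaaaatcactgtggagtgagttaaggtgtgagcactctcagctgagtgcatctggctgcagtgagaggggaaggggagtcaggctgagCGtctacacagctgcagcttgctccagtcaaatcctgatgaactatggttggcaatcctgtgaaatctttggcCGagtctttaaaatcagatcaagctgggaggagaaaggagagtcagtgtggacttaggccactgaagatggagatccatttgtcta
Nanog: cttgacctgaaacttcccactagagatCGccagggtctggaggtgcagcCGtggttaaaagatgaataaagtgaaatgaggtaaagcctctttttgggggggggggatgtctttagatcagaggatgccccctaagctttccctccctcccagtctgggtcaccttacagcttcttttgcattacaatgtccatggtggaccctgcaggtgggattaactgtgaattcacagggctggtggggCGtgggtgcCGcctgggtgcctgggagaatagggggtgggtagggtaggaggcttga
Srsf3: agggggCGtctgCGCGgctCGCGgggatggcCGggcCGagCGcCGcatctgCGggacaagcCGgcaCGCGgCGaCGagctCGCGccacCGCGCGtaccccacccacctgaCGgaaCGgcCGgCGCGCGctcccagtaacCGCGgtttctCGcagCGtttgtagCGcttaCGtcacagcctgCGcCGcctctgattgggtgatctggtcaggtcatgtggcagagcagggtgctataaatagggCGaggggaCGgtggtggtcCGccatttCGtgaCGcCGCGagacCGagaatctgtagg

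CG and motif letters were then counted over groups of promoters. Across all 32851 RefSeq promoters (27025 genes) the median ratio of observed to expected CG was 0.374. The TATA box, searched as TATAAA on the strand of the gene between 45 and 15 bases before the start, was found in 2.14% of them. The E-box, searched as CANNTG anywhere in the 250 bases before the start, was found in 66.2%, and it reads the same on both strands. The GC box, searched as GGGCGG on both strands of the same stretch, was found in 32.7%, and each match itself holds a CG. Promoters of genes with at least 100 TPM in the higher group had a median CG ratio of 0.727 where the gene was higher in GV (956 of 1153 genes matched by symbol), 0.776 where it was lower (499 of 640) and 0.829 where it was not called (480 of 603). These medians all lie above that of all promoters. The genes higher by more than 8 on the log2 scale, a limit set after the values were seen, differed from them: over 139 of 182 genes the median CG ratio was 0.23. Of their promoters 4.79% held the TATA box, 82% the E-box and 16.8% the GC box. In the oocyte clusters (27 of 31 genes matched, 30 promoters) the median CG ratio was 0.0959. Of these promoters 6.67% held the TATA box, 96.7% the E-box and 10% the GC box. For genes lower by more than 8 (21 of 39 genes matched, 30 promoters) the ratio was 0.539. Of those promoters 6.67% held the TATA box, 73.3% the E-box and 46.7% the GC box. With 30 promoters in each set, a small share rests on very few of them. A match is a run of letters and not a bound site, and members of a family share their promoters' descent, so they are not independent.

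The machinery that holds and releases prophase arrest showed 14 higher, 3 lower and 15 uncalled genes of 32. The lower calls rose to 6 in the limma fits and to 5 with the replicate block or with protein-coding genes alone. Arrest rests on cyclic AMP made inside the oocyte. Gpr3, the receptor that keeps its synthesis on, was at 35 and 47.7 TPM in GV and 0.152 and 0.13 TPM in ESC (9.16 ± 0.56). Pde3a, the phosphodiesterase that milrinone blocks, was at 46.1 and 16.1 TPM against 0.0349 and 0.0681 TPM (9.45 ± 0.73). For both genes the GV values lay far above the ESC values. Of the kinase that reads cyclic AMP, the regulatory subunit gene Prkar2b was at 22.6 and 20.7 TPM against 0.98 and 1.41 TPM (4.51 ± 0.51), while Prkar1a, at 41.9 and 32.3 TPM against 59.3 and 52.9 TPM, was not called.

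Downstream stands Cdk1, the kinase of entry into division. Its own message was alike in level, 328 and 308 TPM in GV against 413 and 311 TPM in ESC (0.12 ± 0.54, adjusted p = 0.856). Several of its regulators differed. Wee2, the oocyte kinase that keeps Cdk1 inactive, was at 420 and 299 TPM in GV against 0 and 0.0126 TPM in ESC (16.95 ± 0.71). Cdc25b, the phosphatase that undoes this, was at 80.4 and 74.7 TPM against 15.2 and 18.5 TPM (2.66 ± 0.46). Fbxo43 (Emi2), an inhibitor of the anaphase-promoting complex, was at 44.4 and 30.5 TPM against 0.0311 and 0.0957 TPM (9.36 ± 0.66). In the Mos pathway, which later holds the ovulated egg, Mos measured 400 and 634 TPM against 0.0865 and 0.228 TPM (11.84 ± 1.01), and its distant target kinase Mapk3 (ERK1) 729 and 762 TPM against 29.7 and 19.9 TPM (4.47 ± 0.48). Rps6ka1, a kinase further down the pathway, fell from 72 and 78.7 TPM in ESC to 8.95 and 12 TPM in GV (-2.30 ± 0.35).

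Chromosome cohesion, spindle and checkpoint genes gave 13 higher, 6 lower and 9 uncalled of 28, with 10 lower calls in the limma fits and with the replicate block. Pttg1 (securin), which guards the cohesin-cutting enzyme, was at 2320 and 2210 TPM in GV against 79.8 and 75.2 TPM in ESC (5.13 ± 0.38, adjusted p = 1.46e-05). Aurkc, the Aurora kinase of germ cells, was at 350 and 419 TPM against 11.8 and 8.31 TPM (5.43 ± 0.4), and Birc5 (survivin), its partner, at 971 and 1020 TPM against 199 and 139 TPM (2.65 ± 0.33). The checkpoint kinase Bub1b was at 418 and 371 TPM against 92.7 and 61.8 TPM (2.76 ± 0.46). Each of these 4 genes of cell division was higher in both libraries of the arrested oocyte than in either library of the dividing stem cell.

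Cohesin, the ring that holds sister chromatids together, had members called in both directions. Of 15 cohesin genes and regulators 4 were higher and 5 lower, shares near the 28.3% and 31.3% of all genes (9 lower in the limma fits and with the replicate block). Rec8, the meiotic kleisin, was at 0 and 0.0248 TPM in GV against 7.37 and 20 TPM in ESC (-9.17 ± 1.12). Stag3, its meiotic partner, was at 5.75 and 4.85 TPM against 20.2 and 39.3 TPM (-2.12 ± 0.45). Smc1b, the third meiotic subunit, was higher in GV, at 11.2 and 2.55 TPM against 0.439 and 0.632 TPM (3.95 ± 0.74). Sgol2a, the shugoshin that shields cohesin at centromeres, fell from 50.8 and 39.1 TPM to 8.64 and 3.68 TPM (-2.56 ± 0.44).

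The general transcription machinery had 18 higher, 6 lower and 10 uncalled genes of 34, and 11 higher without ESC2. Each complex held genes of both directions or genes that were not called. Tbpl2 (TRF3), the oocyte form of the TATA-binding protein, had 25.2 and 13.8 TPM in GV and no count in ESC, at least 496-fold higher, while its relative Tbpl1 fell (-2.13 ± 0.35). Gtf2a1l, the germ cell form of a TFIIA subunit, was at 86.9 and 94.3 TPM against 0.134 and 0.218 TPM (9.37 ± 0.59), whereas the general form Gtf2a1 was at 6.23 and 9.87 TPM against 19.2 and 25.4 TPM and was not called. In TFIID, Taf9b was at 134 and 70.1 TPM against 1.9 and 2.6 TPM (5.85 ± 0.5), and Taf1, the largest subunit, fell from 35.2 and 27.9 TPM to 6.19 and 2.68 TPM (-2.56 ± 0.52). In RNA polymerase II 6 of 12 genes were higher and 2 lower. Its catalytic subunit Polr2a was at 9.48 and 4.57 TPM in GV against 141 and 135 TPM in ESC (-3.99 ± 0.42, adjusted p = 7.76e-05). The small subunits Polr2d, at 575 and 705 TPM against 89.1 and 75.2 TPM (3.30 ± 0.38), and Polr2j, at 644 and 722 TPM against 122 and 89.4 TPM (3.04 ± 0.36), were higher in GV.

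Histone genes and their chaperones gave 7 higher, 10 lower and 11 uncalled of 28, and the lower calls dropped to 3 without GV1. Of all tested genes 28.3% were called higher and 31.3% lower, and the shares of this list lay near these. H1foo, the oocyte linker histone at chr6:115944938-115950236, was one of the most abundant messages of the oocyte at 4180 and 7100 TPM, against 0 and 0.0648 TPM in ESC (17.99 ± 1.08). No core histone variant rose, and 7 of 9 fell (3 without GV1). H2afz (H2A.Z) was at 26.9 and 37.3 TPM in GV against 1630 and 748 TPM in ESC (-4.81 ± 0.65). The replacement histone genes H3f3a, at 772 and 910 TPM against 915 and 503 TPM, and H3f3b, at 381 and 503 TPM against 498 and 502 TPM, overlapped between the groups and were not called. Of 11 histone chaperones 5 were higher, 2 lower and 4 uncalled, with a median of -0.25. Npm2 (nucleoplasmin), which unpacks sperm chromatin, was at 2600 and 3140 TPM against 0.732 and 0.586 TPM (12.43 ± 1.04). Chaf1a was at 234 and 278 TPM against 50.1 and 41.9 TPM (2.80 ± 0.49). Lower were Npm1, at 1070 and 745 TPM against 4300 and 1990 TPM (-1.53 ± 0.56), and Npm3, at 39.7 and 42.2 TPM against 199 and 135 TPM (-1.68 ± 0.39). Neither was called without GV1, and Npm1 was not called without GV2, without ESC1, with relative log expression scaling or on log2(TPM + 1). Slbp, which binds the stem-loop of histone messages that lack a poly(A) tail, was at 985 and 897 TPM against 125 and 108 TPM (3.54 ± 0.42).

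Enzymes that write and erase histone methylation gave 12 higher, 16 lower and 15 uncalled of 43. The erasers fell most often: 9 of 15 demethylases were lower and 3 higher, with a median of -1.43. Kdm3a, which removes methyl groups from histone H3 lysine 9, was at 2.04 and 1.62 TPM in GV against 191 and 170 TPM in ESC (-5.97 ± 0.4, adjusted p = 9.25e-06). Kdm5b, which acts on lysine 4, was at 2 and 1.9 TPM against 150 and 90.5 TPM (-5.86 ± 0.5), and its relative Kdm5a at 2.39 and 1.31 TPM against 36.5 and 40.6 TPM (-4.15 ± 0.47). The exception among lysine 4 erasers was Kdm1b, which oocytes need to set maternal imprints, at 148 and 60.1 TPM against 8.76 and 7.16 TPM (3.88 ± 0.46). Of 6 lysine 4 writers 2 were lower and 4 uncalled, and of 6 lysine 9 writers 2 were higher, 2 lower and 2 uncalled. Kmt2a was at 0.0785 and 0.213 TPM against 9.64 and 14.8 TPM (-6.09 ± 0.77), and Ehmt2 (G9a) at 2.46 and 4.12 TPM against 78.1 and 63.1 TPM (-4.02 ± 0.64). Suv39h2 was higher, at 70.7 and 54.4 TPM against 18.2 and 14.9 TPM (2.19 ± 0.34).

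Polycomb genes gave 7 higher, 3 lower and 4 uncalled of 14, with a median of 1.26 and with 5 lower in the limma fits and under the replicate block. Pcgf1 was at 848 and 1030 TPM in GV against 21.7 and 23.2 TPM in ESC (5.87 ± 0.39). Bmi1 (Pcgf4) was at 183 and 89.2 TPM against 24.4 and 19.7 TPM (3.05 ± 0.48), and the methyltransferase Ezh2 at 398 and 229 TPM against 140 and 113 TPM (1.77 ± 0.4). Its core partners Eed, at 122 and 119 TPM against 300 and 270 TPM, and Suz12, at 81.5 and 33.1 TPM against 170 and 115 TPM, were not called. Cbx7, the Polycomb reader of stem cells, fell from 107 and 119 TPM to 4.25 and 5.13 TPM (-4.43 ± 0.49), and the accessory subunit Mtf2 from 189 and 148 TPM to 22.3 and 15.4 TPM (-3.41 ± 0.41).

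Genes for sensing double-stranded RNA gave 9 higher, 3 lower and 8 uncalled of 20, and all but 2 of the higher ones were oligoadenylate synthetases. Active enzymes of this family make a small messenger on binding double-stranded RNA, and RNA levels do not show which copies are active. Oas1e was at 1760 and 1990 TPM in GV against 0.0474 and 0.0598 TPM in ESC (15.37 ± 0.7), and Oas1d at 1170 and 1410 TPM against 0.363 and 0.526 TPM (11.80 ± 0.66). Oas1a, a copy known as an active enzyme, went down, from 22.9 and 6.73 TPM in ESC to 0.491 and 0.679 TPM in GV (-4.29 ± 0.83). Eif2ak2 (PKR), the kinase that stops translation on double-stranded RNA, fell from 11.7 and 8.98 TPM to 0.615 and 0.663 TPM (-3.48 ± 0.45). The adaptor Mavs, at 25.3 and 21.7 TPM against 27.2 and 20.5 TPM, was not called (0.30 ± 0.32, adjusted p = 0.435).

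**Figure D3:**
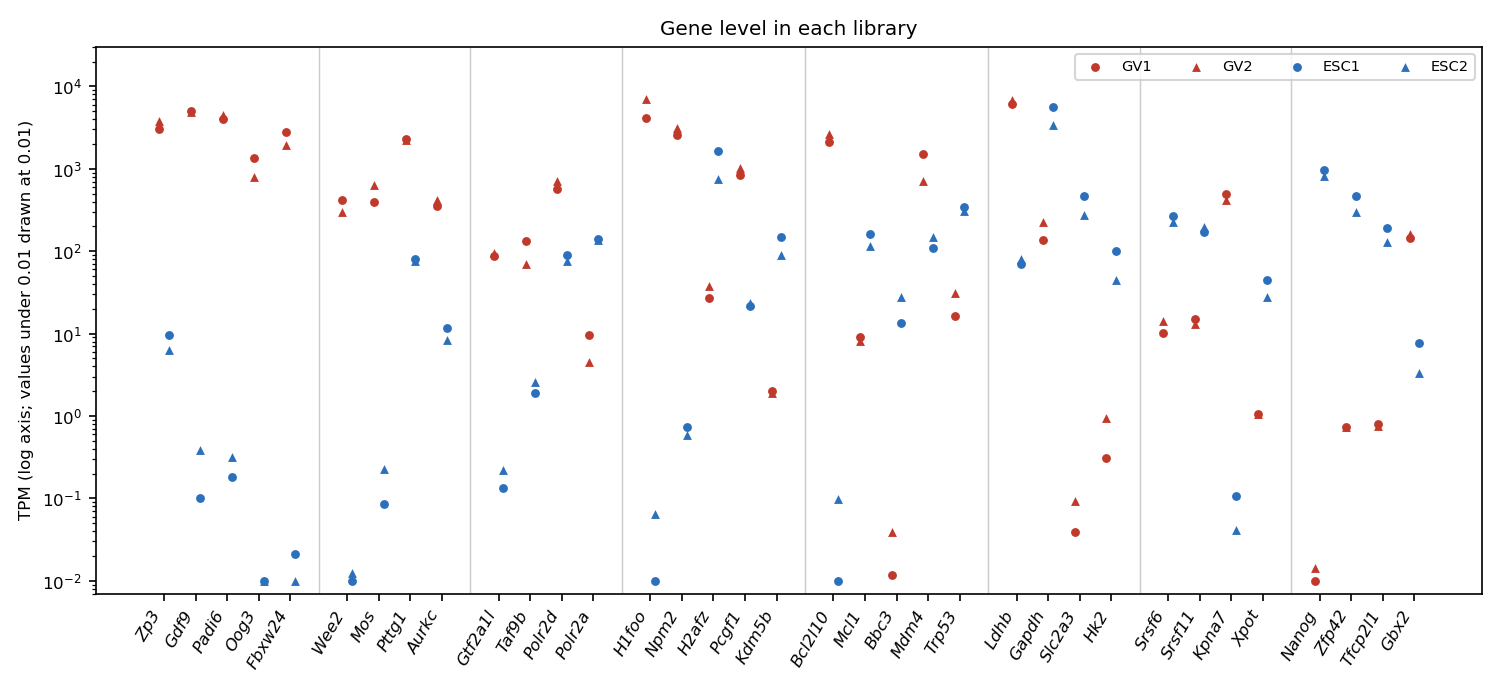
Level of genes named in the text in each of the 4 libraries, in TPM on a log axis (y axis), grouped by role along the x axis, with values under 0.01 drawn at 0.01. Replicates of a group sit close together next to the distance between the groups, for example Ldhb at 6020 and 6750 TPM in GV against 68.9 and 81.1 TPM in ESC.

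Translation initiation factors, 9 higher, 13 lower and 20 uncalled of 42 (5 higher without ESC2), changed most at the cap. Eif4e1b, the oocyte form of the cap-binding protein, was at 2010 and 2190 TPM in GV against 1.43 and 1.45 TPM in ESC (10.56 ± 0.56, adjusted p = 5.59e-06). Eif4e3 was at 231 and 180 TPM against 0.192 and 0.585 TPM (9.28 ± 0.68), and Eif4enif1 (4E-T), which ties cap-binding proteins into repressed particles, at 395 and 255 TPM against 49.5 and 44.7 TPM (3.63 ± 0.37). Eif4ebp1, the repressor that the mTOR kinase controls in growing cells, fell to a low level: 1.97 and 6.57 TPM against 725 and 431 TPM (-6.82 ± 0.63). Eif4e itself was at 505 and 325 TPM in GV and 271 and 166 TPM in ESC, a call just under the threshold (1.25 ± 0.49, adjusted p = 0.0494). Of 14 cap-binding genes 5 were higher (3 in the limma fits) and 7 lower. Of the factors that scan for the start codon, Eif1a fell from 199 and 120 TPM to 2.7 and 2.04 TPM (-5.77 ± 0.49). The 13 eIF3 genes were mostly uncalled (10), but Eif3a, the largest subunit, fell from 218 and 148 TPM to 18.9 and 8.91 TPM (-3.41 ± 0.45).

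Genes for DNA replication gave 4 higher, 12 lower and 18 uncalled of 34, with 6 lower without GV1 or without ESC1 and 2 higher without GV2, without ESC1 or without ESC2. The median of -0.15 was close to that of all protein-coding genes. Pcna, the sliding clamp, was at 262 and 238 TPM in GV against 442 and 275 TPM in ESC and was not called (-0.13 ± 0.4, adjusted p = 0.784). Orc5, a subunit of the origin recognition complex, was at 673 and 346 TPM against 64.1 and 53.9 TPM (3.32 ± 0.42). Pold1, the catalytic subunit of a main replicative polymerase, was at 2.53 and 4.84 TPM against 66.9 and 66.5 TPM (-3.44 ± 0.46), and Rrm2, which supplies deoxynucleotides, at 48.5 and 49.8 TPM against 291 and 221 TPM (-2.10 ± 0.4).

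Regulators of the gap before replication and of p53 gave 6 higher, 12 lower and 8 uncalled of 26. Ccnd1 (cyclin D1) was at 0.709 and 0.89 TPM in GV against 57.7 and 41.8 TPM in ESC (-5.76 ± 0.48), and its kinase Cdk4 at 18.3 and 47.5 TPM against 889 and 655 TPM (-4.31 ± 0.74). Ccnd2 went up from a low level, 0.25 and 0.449 TPM in ESC to 3.25 and 5.38 TPM in GV (4.66 ± 0.58). Among inhibitors of these kinases Cdkn2a fell from 31.2 and 25.4 TPM to 0.763 and 1.06 TPM (-4.60 ± 0.55), and Cdkn1c rose from 1.35 and 0.913 TPM to 9 and 10.5 TPM (3.22 ± 0.5). Trp53 was at 16.2 and 30.8 TPM in GV against 347 and 308 TPM in ESC (-3.48 ± 0.46). Trp63, the family member that guards the genome of oocytes, was at 13.7 and 8.74 TPM against 0.0924 and 0.0918 TPM (6.76 ± 0.53). Mdm4, a repressor of p53, was at 1530 and 715 TPM against 110 and 150 TPM (2.83 ± 0.58, adjusted p = 0.00272), while Mdm2, at 84.7 and 68.7 TPM against 88.6 and 225 TPM, was not called.

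The Bcl2 family, whose members promote or hold off cell death at the mitochondrion, had 10 lower, 3 higher and 3 uncalled genes of 16 tested, with a median of -2.56. All 3 effectors that open the mitochondrial membrane were lower. Bax was at 14.9 and 31.8 TPM in GV against 350 and 424 TPM in ESC (-3.90 ± 0.44), and Bak1 at 0.183 and 1.17 TPM against 59.4 and 46.3 TPM (-5.91 ± 0.9). The third, Bok, was not called without GV1 or without ESC2. Of 8 sensors that start the process 5 were lower (3 without GV1). Bbc3 (PUMA) was at 0.0118 and 0.0393 TPM against 13.5 and 27.4 TPM (-9.16 ± 0.78), and Pmaip1 (NOXA) at 0.233 and 0.115 TPM against 16.1 and 48.1 TPM (-7.28 ± 0.75). One sensor rose, Bik, at 14.3 and 19.4 TPM against 0.604 and 0.726 TPM (4.97 ± 0.57). The survival genes moved in both directions. Bcl2l10, the oocyte member, was at 2140 and 2630 TPM against 0 and 0.0972 TPM (15.38 ± 1.22), and Mcl1, a short-lived survival protein, at 9.2 and 8.23 TPM against 160 and 114 TPM (-3.65 ± 0.36, adjusted p = 5.7e-05).

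Sugar use separated the cells as well. Fully grown oocytes burn pyruvate and take up little glucose, whereas stem cells run glycolysis at a high rate. Of 30 genes for glucose, lactate and pyruvate 4 were higher, 18 lower and 8 uncalled. The lower calls fell to 9 without GV1 and to 10 without ESC1, and the higher ones to 2 without ESC1, so the following genes are ones called under every alternative. Slc2a3, a glucose carrier encoded at chr6:122727809-122801640, was at 0.0395 and 0.0942 TPM in GV against 473 and 274 TPM in ESC (-11.28 ± 0.89). The carrier Slc2a1 was at 4.93 and 10.5 TPM against 111 and 49.2 TPM (-3.07 ± 0.52). Hk2 (hexokinase), which traps glucose inside the cell, was at 0.309 and 0.934 TPM against 101 and 44.6 TPM (-6.92 ± 0.78), and Gapdh, often taken as a constant reference, at 138 and 228 TPM against 5580 and 3400 TPM (-4.38 ± 0.51, adjusted p = 0.000125). No glycolytic enzyme was called higher, and 13 of 15 were called lower, 6 without GV1 and 7 without ESC1.

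Lactate dehydrogenase changed its subunit. Ldhb, which favours turning lactate into pyruvate, was at 6020 and 6750 TPM in GV against 68.9 and 81.1 TPM in ESC (6.80 ± 0.43, adjusted p = 7.82e-06). Ldha, the glycolytic subunit, was at 2.2 and 50.2 TPM in GV against 1680 and 520 TPM in ESC (-5.00 ± 1.54) and lost its call without GV1, without ESC1 and in the fit of GV and ESC alone. GV2, which held the larger sum of granulosa markers, also held the larger Ldha level. Whether the 2 are linked was not tested.

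Protein breakdown and folding had the largest shares of uncalled genes among the lists of pathways. Of 39 proteasome genes 28 were not called, 5 were higher (0 without ESC2, 2 in the limma fits) and 6 lower (3 without GV1). Psma1, a core subunit, was at 194 and 187 TPM in GV and 208 and 140 TPM in ESC (0.42 ± 0.38, adjusted p = 0.345). An exception was Psma8, the core subunit of meiotic spermatocytes, at 0.127 and 0.159 TPM in GV against 18.8 and 12.4 TPM in ESC (-6.41 ± 0.73). Of 20 chaperone genes 6 were lower, none higher and 14 uncalled. Hsp90aa1 was not called, at 2810 and 995 TPM against 3310 and 1740 TPM, while Hsp90ab1 fell from 3680 and 2190 TPM to 314 and 350 TPM (-2.79 ± 0.45). The CCT ring that folds tubulin and actin split likewise, with Cct6a at 141 and 125 TPM against 875 and 583 TPM (-3.61 ± 0.45) and Cct3, at 329 and 389 TPM against 556 and 369 TPM, not called.

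Splicing genes gave 4 higher, 20 lower and 23 uncalled of 47, and the higher calls ranged from 0 to 7 over the alternatives. The SR proteins, which choose splice sites and carry RNA out of the nucleus, and their kinases held 10 of the lower calls among 14 genes, with a median of -2.18. Srsf6 was at 10.1 and 14.4 TPM in GV against 264 and 227 TPM in ESC (-3.89 ± 0.36, adjusted p = 3.77e-05). Srsf11 was at 15 and 13.1 TPM against 172 and 194 TPM (-3.54 ± 0.33), and Srsf3, whose promoter is printed above, at 102 and 81.9 TPM against 706 and 394 TPM (-2.27 ± 0.47). Srsf4 was the one SR protein gene in the list that was not called, at 39.6 and 57.2 TPM against 61.5 and 65.8 TPM. Of 14 Sm and U snRNP genes of the core particles 5 fell, a share near that of all genes, and 2 did without ESC1 and 3 without GV1. The example with the largest fall was Snrpb, at 13 and 23.3 TPM against 291 and 225 TPM (-3.47 ± 0.55).

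Nuclear transport genes gave 3 higher, 15 lower and 8 uncalled of 26. Kpna7, the importin of oocytes, was at 489 and 420 TPM in GV against 0.106 and 0.0412 TPM in ESC (13.07 ± 0.62). Kpna2 was higher as well, at 1470 and 919 TPM against 204 and 137 TPM (3.24 ± 0.53). The widely used importins Kpna1, at 1.15 and 0.88 TPM against 45.4 and 28.6 TPM (-5.32 ± 0.57), and Kpna4, at 2 and 1.2 TPM against 45.3 and 32.9 TPM (-4.35 ± 0.48), fell. Xpot, which exports transfer RNA, was at 1.07 and 1.05 TPM against 44.2 and 27.4 TPM (-4.75 ± 0.63). Tnpo3, which carries SR proteins into the nucleus, was at 6.62 and 5.03 TPM against 75.8 and 66.8 TPM (-3.74 ± 0.58).

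The tubulins, of which spindles are built, gave 11 higher, 3 lower and 5 uncalled of 19 tested, with 1 lower without GV1. Tubb2a was at 687 and 906 TPM in GV against 76 and 56.2 TPM in ESC (3.93 ± 0.44), and Tuba3a at 254 and 460 TPM against 30.3 and 17.3 TPM (4.26 ± 0.54). Tubg2, one of 2 gamma-tubulin genes, was at 217 and 256 TPM against 0.864 and 2.01 TPM (7.65 ± 0.64), while the other, Tubg1, at 28.8 and 53.7 TPM against 58.1 and 48.3 TPM, was not called. Tuba1a, the alpha-tubulin known from neurons, fell from 424 and 235 TPM to 4.41 and 16.8 TPM (-4.83 ± 0.8).

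Genes of cell contacts and of the actin and filament skeleton were mostly lower in GV, with 2 higher, 17 lower and 11 uncalled of 30 (1 to 4 higher over the alternatives). Gja4 (connexin 37), which forms the channels between oocyte and granulosa cells, was at 327 and 585 TPM in GV against 1.63 and 1.88 TPM in ESC (8.35 ± 0.82). Cdh1 (E-cadherin) was at 39.7 and 40.1 TPM against 289 and 200 TPM (-2.26 ± 0.37), and Epcam at 0.508 and 0.613 TPM against 28.6 and 19.5 TPM (-5.08 ± 0.43). Actb (beta-actin) was at 57.5 and 165 TPM against 2670 and 1670 TPM (-4.02 ± 0.76), and Tmsb4x, which binds free actin, at 1.11 and 1.5 TPM against 199 and 98.4 TPM (-6.50 ± 0.57). Neither Actb nor Gapdh held its level between these cell types.

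Of the naive network, 20 of 24 genes were lower in GV, 0 higher and 4 uncalled, with a median of -7.40. With ESC1 left out, with no count filter, with GV and ESC alone or with the replicate block 1 gene was called higher. Zfp42 (Rex1) was at 0.725 and 0.74 TPM in GV against 468 and 297 TPM in ESC (-8.71 ± 0.53). Tfcp2l1, a target of LIF that holds the naive state, was at 0.807 and 0.746 TPM against 193 and 128 TPM (-7.78 ± 0.46), and Klf5 at 0 and 0.0321 TPM against 71.4 and 43.8 TPM (-10.97 ± 1.0). The stem cell genes that the oocyte already held at a like level were Sall4, at 64.4 and 88.8 TPM against 89.6 and 71.3 TPM, Dppa2, at 107 and 83.9 TPM against 116 and 99.7 TPM, and Nr5a2, at 37 and 32 TPM against 46.6 and 25.3 TPM. None of the 3 was called, and the GV and ESC values of each overlapped.

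The LIF pathway that the culture medium feeds had 6 higher, 8 lower and 6 uncalled genes of 20. These counts stand beside the 28.3% higher and 31.3% lower of all tested genes. Of its 10 receptors, kinases and transcription factors 4 were higher (2 in the limma fits) and 2 lower (4 in the limma fits). Lifr, the receptor, was at 3.46 and 2.2 TPM in GV against 13.7 and 13.1 TPM in ESC (-2.89 ± 0.41). Jak2, the kinase bound to such receptors, was much higher in the oocyte, at 194 and 67.1 TPM against 3.53 and 3.03 TPM (5.61 ± 0.56). Of its feedback genes Pim1 fell from 93.4 and 51.6 TPM to 2.25 and 5.88 TPM (-3.80 ± 0.55), while Socs1 rose from 1.31 and 1.73 TPM to 6.17 and 10.4 TPM (2.77 ± 0.46). Gbx2, a LIF target that can hold the naive state, was higher in the oocyte, at 143 and 162 TPM in GV against 7.65 and 3.29 TPM in ESC (4.98 ± 0.53, adjusted p = 7.9e-05), against the direction of Klf4, Klf5 and Tfcp2l1.

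Imprinted genes, which only 1 parental copy expresses in most tissues, gave 7 higher, 18 lower and 14 uncalled of 39. Of 22 genes expressed from the paternal copy 4 were higher (2 in the limma fits, without GV2 and without ESC1) and 11 lower. Impact was at 2.31 and 0.975 TPM in GV against 80 and 89 TPM in ESC (-5.40 ± 0.64), and Peg10 at 1.01 and 0.367 TPM against 18 and 13.3 TPM (-4.21 ± 0.51). Usp29, though paternal by its class, was higher in GV, at 9.81 and 5.82 TPM against 1.49 and 1.78 TPM (2.72 ± 0.41). Of 17 genes expressed from the maternal copy 3 were higher and 7 lower (4 lower with protein-coding genes alone). H19 was at 0.0648 and 0.0648 TPM in GV against 4.75 and 5.23 TPM in ESC (-7.13 ± 0.68), and Meg3 at 5.4 and 11.7 TPM against 159 and 161 TPM (-4.03 ± 0.4). H13 was at 171 and 215 TPM against 13.7 and 17.9 TPM (3.73 ± 0.43). Both classes thus held genes of both directions.

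To see which of 2 related genes a cell type held, 32 pairs from the same family were followed as the share of the second member in the summed TPM of the pair. In 19 pairs the second member held the majority in both GV libraries and the minority in both ESC libraries, 9 kept the first member on top in all 4 libraries, 2 went the other way, 1 was mixed and 1 kept the second on top. In 10 of the 19 the first member was called lower, in 6 it was not called and in 3, among them Bcl2l1 (1.95 ± 0.38), it was called higher. Counted in estimated counts in place of TPM, 19 pairs switched too, 11 kept the first on top and 1 went the other way. Pabpc1l, the oocyte form of the poly(A)-binding protein, held 91.8% and 90.8% of its pair in GV and 0.0102% and 0.0416% in ESC. Ybx2, which coats stored messages, held 86.9% and 78.2% of the pair with Ybx1 in GV against 0.422% and 0.623% in ESC. Eif4e1b held 79.9% and 87.1% beside Eif4e against 0.524% and 0.864%. Gtf2a1l held 93.3% and 90.5% beside Gtf2a1 against 0.69% and 0.852%. Over these 4 pairs no GV share was under 78.2% and no ESC share over 0.864%.

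Not every oocyte relative took over. Kpna7 was called higher with one of the largest differences, yet it held only 25% and 31.4% of its pair in GV, and Kpna2 was higher as well. Tbpl2 held 22.7% and 14.6% beside Tbp, and Ccnb3 3.48% and 1.17% beside Ccnb1. Slc2a3 went in reverse, from 81% and 84.8% of its pair with Slc2a1 in ESC to 0.793% and 0.892% in GV. The pairs were chosen with earlier results known, so their number says nothing of how common such changes are.

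**Figure D4:**
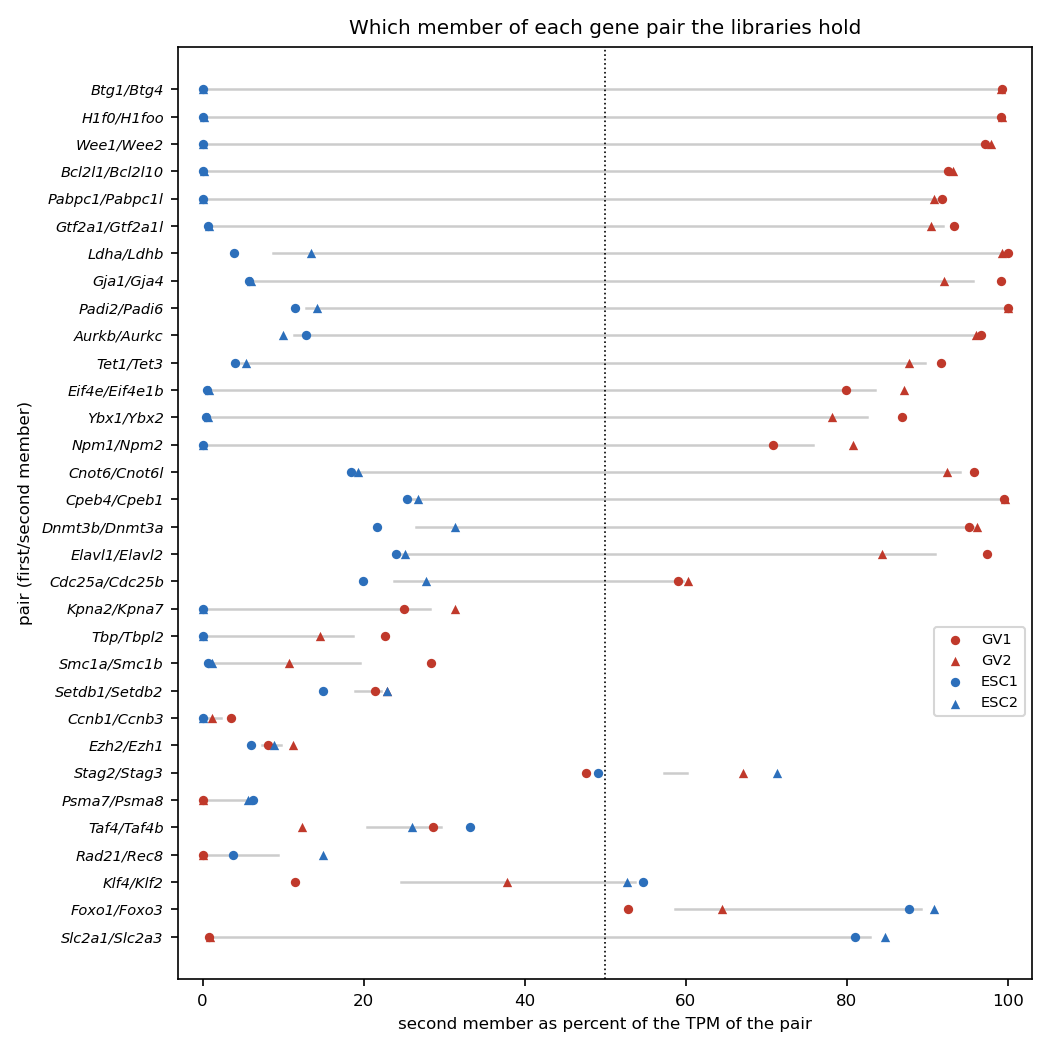
Share of the second member in the summed TPM of each of 32 gene pairs (x axis, percent), with 1 symbol per library and a grey line between the group means. In 19 pairs both GV libraries lie above 50% and both ESC libraries below, and Slc2a1/Slc2a3 and Klf4/Klf2 run the other way, the latter in TPM but not in estimated counts, of which Klf2 held 41.8% and 40.1% in ESC.

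The transcripts of a gene differed too. Among 11953 genes with at least 2 transcripts tested, 3203 (26.8%) changed the relative use of their transcripts between GV and ESC (edgeR's diffSpliceDGE, Simes test per gene, Benjamini-Hochberg adjustment). The number fell to between 722 and 1813 when 1 library was left out, and to 938 when only protein-coding transcripts were used. In simulated data this test made more false calls than its threshold allows, so the number is not a firm one. Of 2845 protein-coding genes with at least 20 TPM in both groups, 2063 had the same leading transcript in all 4 libraries and 299 had one leader in both GV and another in both ESC libraries, of which 182 were called. In 104 of those 182 both leaders were protein-coding.

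Dnmt1, the enzyme that maintains DNA methylation, shows a start that is known from oocytes. Transcript Dnmt1-202 begins 6909 bases upstream of Dnmt1-201 and its coding part gives 1501 residues in place of 1620, the shorter form without the first part of the protein. It held 82.5% and 82.1% of the gene's TPM in GV and 30% and 32.8% in ESC (adjusted p = 0.0081). The call was lost without GV1 (adjusted p = 0.134), without GV2 (0.132) and without ESC2 (0.0504). The promoters of both starts, from RefSeq on GRCm38.p6, minus strand, with CG in capitals, lie at chr9:20959839-20960138 for the upstream start (2 CG) and at chr9:20952930-20953229 for the downstream one (12 CG). RefSeq holds a further start just below the latter, with a promoter at chr9:20952574-20952873 (33 CG) that is not printed.
Dnmt1 upstream start: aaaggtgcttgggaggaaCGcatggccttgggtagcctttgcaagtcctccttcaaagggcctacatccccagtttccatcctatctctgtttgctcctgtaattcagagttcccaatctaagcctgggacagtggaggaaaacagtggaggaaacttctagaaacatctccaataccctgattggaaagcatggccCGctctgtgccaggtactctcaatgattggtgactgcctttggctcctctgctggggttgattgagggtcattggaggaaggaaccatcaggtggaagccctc
Dnmt1 downstream start: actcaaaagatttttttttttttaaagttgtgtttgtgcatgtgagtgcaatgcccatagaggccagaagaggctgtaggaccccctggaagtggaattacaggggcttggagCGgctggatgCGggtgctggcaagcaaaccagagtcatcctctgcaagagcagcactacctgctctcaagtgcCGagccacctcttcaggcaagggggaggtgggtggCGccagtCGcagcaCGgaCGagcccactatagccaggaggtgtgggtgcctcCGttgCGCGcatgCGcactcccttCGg

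Other genes switched more completely, and the following kept their call under every alternative that could test them. Med27 encodes a subunit of Mediator, which links transcription factors to RNA polymerase II. Its full transcript Med27-001 (311 residues) held 7.68% and 6.37% of the gene in GV and 93.3% and 87.4% in ESC (adjusted p = 1.75e-06). Only its share fell, since its level was 45.3 and 55.5 TPM in GV against 22.2 and 22.2 TPM in ESC. In GV the transcripts Med27-005 (35% and 29.9%) and Med27-008 (34.8% and 35.5%) were present beside it. They start 31021 and 31714 bases further down and encode 100 and 172 residues. Neither had any TPM in ESC. Psap encodes a precursor of lysosomal saposins, and its transcript Psap-204 (557 residues) held 71.4% and 69.7% in GV against 1.07% and 1.81% in ESC (adjusted p = 2.87e-06), where Psap-001 led with 81.4% and 75.4%. Tsc22d1 encodes a transcriptional regulator, and its transcript Tsc22d1-001 held 1.34% and 2.17% in GV against 88.7% and 73.8% in ESC (adjusted p = 1.74e-05). Me1 encodes malic enzyme, and its transcript Me1-002, which starts 8676 bases further down, held 86.9% and 72.5% against 0% and 1.56% (adjusted p = 0.00394).

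For Esrrb, a core naive factor, the gene total hid this exchange. The gene summed to 146 and 190 TPM in GV against 294 and 222 TPM in ESC, but 82.9% and 87.7% of the GV level was the noncoding transcript Esrrb-004, against 0.794% and 2.25% in ESC (adjusted p = 0.00022). The coding transcript Esrrb-002 was at 24.9 and 23.2 TPM in GV against 255 and 196 TPM in ESC. Cth, an enzyme of cysteine synthesis, was read in GV almost only as the noncoding Cth-003, which held 97.3% and 97% against 1.67% and 6.15% in ESC (adjusted p = 0.000277).

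**Figure D5:**
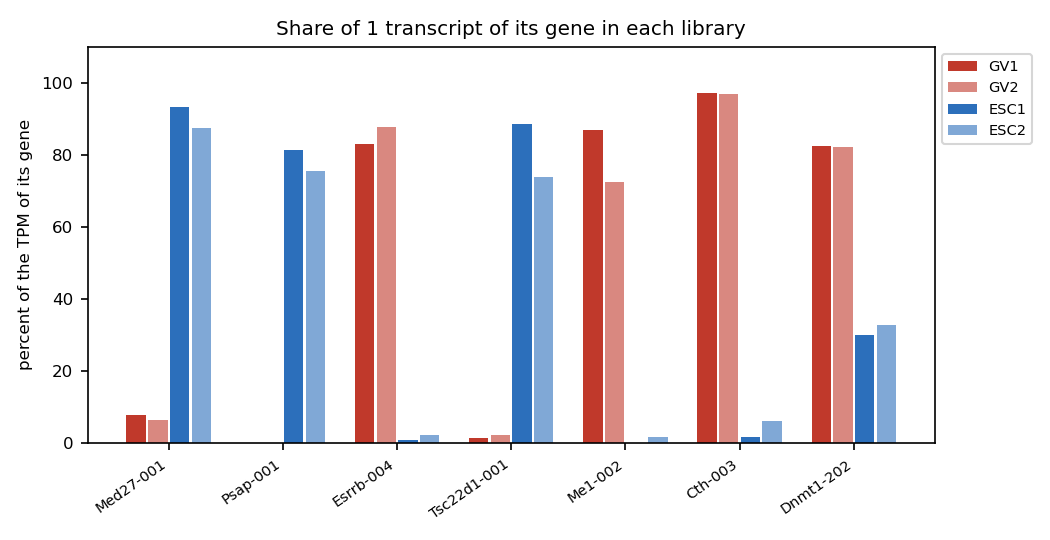
Percent of the TPM of its gene held by 1 transcript (y axis) in each of the 4 libraries, for the transcript whose share changed most in each of 7 genes (x axis). The GV and ESC replicates stand apart in all 7, for example Med27-001 at 7.68% and 6.37% in GV against 93.3% and 87.4% in ESC, and they are nearest for Dnmt1-202.

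Other RNA classes were divided unevenly as well. Small nucleolar RNA genes, as far as such a library holds them, were lower in GV in 127 of 169 tested and higher in 2, and their transcripts made up 0.0441% and 0.0486% of TPM in GV against 0.897% and 1.42% in ESC. Long intergenic noncoding genes leaned the other way, with 598 higher and 365 lower of 1623 tested and a median of 0.56. Processed pseudogenes were lower in 586 and higher in 221 of 1698. Transcript models of the class TEC, which await experimental proof, took 6.55% and 6.04% of TPM in GV and 0.578% and 0.96% in ESC, although only 81 of 1363 such genes were higher and 509 lower.

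A few models carried that share. Gm42887 (chr5:69503842-69504960) had the highest mean level of all genes in GV, with 12700 and 11600 TPM in GV against 16.6 and 29.1 TPM in ESC (9.36 ± 0.87). All of its sequence words of 31 bases (100%) also occur in other genes, 297 of them, and the other abundant TEC models shared at least 80.7% of theirs. Which locus these reads came from is therefore uncertain.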

How the data were processed

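Total RNA of 2 GV oocyte and 2 ESC libraries was analysed, with 4 further libraries in the count filter, the scaling and the spread between replicates. Reads were quantified with kallisto 0.43 and the build is mm10, per the submitters' processing notes. The values deposited by the authors are estimated counts and TPM for each of 117667 transcripts. Here both deposited measures, the estimated counts and the TPM, were summed over the transcripts of each of 48440 genes, and count sums were rounded to whole numbers. TPM are printed to 3 significant digits. A TPM is relative to its library's total, so a gene that takes much RNA lowers all others.

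Counts were scaled by TMM without Gm42418 and tested with edgeR 4.0.16 (R 4.3.3; filterByExpr, robust quasi-likelihood fit, 4 residual degrees of freedom, Benjamini-Hochberg threshold 0.05). The sign is GV minus ESC, and SE is the log2 difference divided by the square root of F. A large log2 difference of a gene with few counts in a group rests on those counts, as for Wee2 (0 and 1 in ESC). Transcript use was tested with diffSpliceDGE. A group with no counts was set to a floor of 3 counts per library, which covers counting error only. Depth ranged from 50216249 to 187501275 estimated counts. Alternatives were DESeq2 1.42.0, limma 3.58.1 on log2(TPM + 1) and log2(TPM + 0.1), other scaling, filters, library sets, a length offset, a replicate block and leaving out each library. On simulated data the gene test kept false calls rare but missed most changes of the smaller size simulated, and the test of transcript use made more false calls than its threshold allows.

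Gene positions are those of GENCODE M21 on GRCm38, and 48058 genes matched. Genes were named as members of the lists and pairs, by size of change and level in each role, with the 12 highest and 12 lowest differences, the 15 highest levels and the largest changes in transcript use. Lists and members were chosen with earlier results of these data known.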

Additional observations from a re-analysis of the deposited data

How the results depend on the processing

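No gene called in the GV and ESC comparison was called in the opposite direction under any of the 14 alternatives. Changes of sign among genes that lost their call were not counted. Genes higher in GV numbered 7100 and ranged from 5668 to 6694 when 1 library was left out. Genes lower numbered 7834 and ranged from 4925 (without GV1) to 7279. Under the other alternatives they ranged from 6889 to 8272 and from 7834 to 9021 where all genes were fitted, with 5366 and 5955 for protein-coding genes alone. With the replicate number as a block 7628 genes were higher and 8762 lower, and 3850 changed transcript use. The labels do not say that a number pairs libraries. Without Gm42418, same-numbered libraries deviated together only weakly (r = 0.0847 over 14429 genes). Gm42418 itself followed the number, with 0.022% and 1.66% of counts in GV1 and GV2 and 0.0306% and 14.7% in ESC1 and ESC2. Replicate 2 was also the deeper library of both groups. Whether the number marks a difference of preparation was not tested. Genes with changed transcript use (3203) ranged from 722 to 1813 with 1 library left out and numbered 938 with protein-coding transcripts alone. The mean number of genes above 1 TPM in GV was 13938.5 as deposited and 13964 after rescaling without Gm42418 and mitochondrial genes. In ESC it was 15212 and 15550.5. On deposited TPM the GV means were 20410.5 above 0.1 TPM and 7836 above 10 TPM, and the ESC means 22852.5 and 8555.5. ESC1 and ESC2 lay apart, with 14234 and 16190 genes above 1 TPM as deposited. Of 840 list counts under alternatives, 781 stayed within 1.5 times of the value in the report. With 2 libraries a group, a permutation test of one gene cannot reach 0.05, so the calls rest on the spread shared across genes. Among named genes that were not called, the sign of a difference near 0 changed for Cdk1 (-0.17 in both limma fits, -0.07 without ESC2), Mavs (-0.01 in both limma fits) and Pcna (0.14 without a count filter, 0.04 for GV and ESC alone, and from -0.43 to 0.23 with 1 library left out). Cdk1 ranged from -0.07 to 0.34 with 1 library left out. The cause of these shifts was not tested.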

Other observations

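Both cell types spent much of their RNA on few messages, and on different ones. In ESC the ferritin light chain gene Ftl1, which stores iron, was at 4570 and 3540 TPM against 71.8 and 115 TPM in GV (-5.08 ± 0.46, edgeR adjusted p = 3.3e-05). The elongation factor gene Eef1a1 was at 11300 and 7740 TPM in ESC and 1760 and 2070 TPM in GV. Calcoco2 (chr11:96099326-96111964), an autophagy receptor gene, had no count in GV and 428 and 371 TPM in ESC, at least 10800-fold lower. In the other direction Gm13084 (at least 56800-fold) and Rfpl4 (at least 40400-fold) had no count in ESC, with 2070 and 1150 TPM and 1120 and 1540 TPM in GV. After Gm42418 and mitochondrial genes were left out, the 524 and 474 most abundant genes held 50% of TPM in GV, and 369 and 469 did in ESC.

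Replicates did not agree equally for every gene. Of 3150 protein-coding genes with at least 50 TPM in GV, 227 differed more than 2-fold between GV1 and GV2 and 7 more than 4-fold. Smc4, a condensin gene, was at 323 TPM in GV1 and 75 TPM in GV2, and Usp9x at 157 and 34.8 TPM. In ESC 159 of 2725 genes differed more than 2-fold, among them Rtkn, at 25.4 and 176 TPM. With genes split into 4 equal groups by transcript length, the median of GV2 minus GV1 ran from 0.08 in the shortest to -0.15 in the longest group on the log2 scale, while that of ESC2 minus ESC1 ran from 0.00 to 0.01. The median of GV minus ESC ran from 0.15 to -0.47 over the same groups, and the part of length in these differences was not tested beyond the fit with a length offset, which called 7109 genes higher and 7876 lower.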
